A study of Mus musculus with 6 samples.

Results

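Nrg4, Nrg1, Areg, Hbegf and Egf, ligands of the epidermal growth factor (EGF) family, and the receptors Egfr, Erbb2, Erbb3 and Erbb4 were followed through the nuclei of mouse white fat. They were taken from the gene list of the files by symbol, which gave 9 genes on 10 of 56980 gene identifiers. Nrg1 has a second identifier (ENSMUSG00000118541) that held 0 counts in every library, so each gene below is 1 identifier.

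EGF family ligands are made as membrane proteins and are shed by proteases to act on neighbouring cells. Areg (amphiregulin), Egf and Hbegf bind Egfr, and Hbegf also binds Erbb4. The neuregulins Nrg1 and Nrg4 bind Erbb4, and Nrg1 also binds Erbb3. Receptors signal as pairs: Erbb2 binds no ligand and works as a partner of the others, whereas Erbb3 has little kinase activity of its own. Nrg4 is known as a factor secreted by fat cells, and amphiregulin as a ligand of the mammary ducts, which run through the subcutaneous fat of female mice.

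Single-nucleus RNA libraries were made from female C57BL/6J mice in 3 groups of 2 libraries: young SAT (subcutaneous adipose tissue, 2 months), old SAT (24 months) and old VAT (visceral adipose tissue, 24 months). No group carried a transgene or a treatment. The sample labels give 24 months, which is used here, where the design text gives 26 months. The labels give 1 date for all libraries and name every cell type as adipocytes, and they do not tie replicate numbers to animals. SAT and VAT came from the same mice at each age according to the methods, so the libraries of both depots need not be independent, and p-values measure only the spread between the libraries.

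The 6 libraries held 6158 to 11341 barcodes and 8061862 to 16226690 unique molecular identifiers (UMIs, 1 per captured transcript). A nucleus was kept if it had more than 1000 UMIs, more than 500 genes and a mitochondrial share below 15%, and 27074 nuclei remained, 2490 to 5776 per library. Any pair of libraries shared at most 0.769% of barcodes. Clusters were given a class by marker lists and are adipocyte-like, fibro-adipogenic progenitor-like (FAP) and so on, written without the suffix below. All 9 adipocyte markers, all 8 FAP markers, all 7 mesothelial markers and 11 of 12 epithelial markers were over 2-fold higher in their class than in the other nuclei. Adipocyte nuclei were 3.23% to 59.0% of the kept nuclei, against the label of adipocytes for all. VAT replicate 2 stood apart: only 164 of its nuclei were adipocytes, 34.9% were mesothelial, 12.4% resembled oviduct secretory cells, 11.2% resembled ovarian steroidogenic cells, and its median mitochondrial share was the highest (5.07% against 0.776% to 3.49% in the others). Epithelial nuclei came almost wholly from SAT and mesothelial nuclei from VAT.

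Levels are UMIs of a gene per 1000000 UMIs of its class in 1 library (CPM). They were compared between classes for 1 gene and never between genes, since long genes give more nuclear reads, and no test was made between classes because the clusters rest on the same counts. A class enters where a library held at least 20 of its nuclei. For shares of nuclei, each nucleus was thinned to 1000 UMIs, and exact intervals and limits cover counting error only.

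Nrg4, on chromosome 9 (chr9:55121336-55234128, minus strand, GRCm39), was highest in adipocytes among the larger classes. In adipocytes it stood at 792 and 827 CPM in young SAT, at 550 and 313 CPM in old SAT, and at 759 and 185 CPM in VAT at 24 months. Both libraries at 2 months lay above both SAT libraries at 24 months, and the VAT libraries lay far apart. Endothelial nuclei, with 5.96 to 144 CPM, did not overlap with the adipocytes. Macrophages had 7.54 to 65.5 CPM in 5 libraries and 212 CPM in VAT replicate 1, which overlapped with the lowest adipocyte value. The 9 adipocyte markers summed to 6053 CPM in those macrophages and to 483 to 4826 CPM in the macrophages of the other libraries, and their part in the Nrg4 level was not tested. Hormone-sensing epithelial nuclei had 38.0 to 104 CPM and T cells 7.51 to 25.7 CPM. Adipocytes held 74.5% to 87.6% of the Nrg4 UMIs of 5 libraries and 37.3% of those of VAT replicate 2, where oviduct secretory nuclei held 27.2%.

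After thinning, 46.6% and 50.6% of adipocyte nuclei of SAT at 2 months had an Nrg4 UMI. The share was 34.1% and 21.4% in SAT at 24 months, and 42.6% and 15.9% in VAT. In mature dendritic cells, which had the lowest mean Nrg4 level of the classes measured in at least 5 libraries, the share was 0% to 1.57%, at a median of 1502.5 to 3046 UMIs per nucleus against 1555 to 2273 in adipocytes. The 0% rests on 42 nuclei, with an exact upper bound of 8.41%. Among 12453 genes and 39 class by library values from 12 classes, the genes with the pattern most like that of Nrg4 were Acad11 (Pearson r = 0.85), Inca1 (r = 0.84) and Adipor2 (r = 0.84). Acad11 encodes an acyl-CoA dehydrogenase, and Adipor2, an adiponectin receptor, was also on the list that named adipocytes.

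Nrg1 (chr8:32303906-33374825, minus strand, over 1 megabase long) had its highest level in the mesothelium of VAT, and there the libraries did not agree. It stood at 17.8 CPM in 241 mesothelial nuclei of VAT replicate 1 and at 820 CPM in 1771 nuclei of replicate 2. One mesothelial sub-cluster of 370 nuclei, all from replicate 2, reached 1776 CPM, and another of 138 nuclei, nearly all from replicate 2, had 3.33 CPM. The level thus varied more between sub-clusters of 1 library than between most classes. Mature dendritic cells had 177 and 77.5 CPM in SAT at 2 months, 184 and 141 CPM in SAT at 24 months and 165 CPM in VAT replicate 2, above the 9.36 to 71.7 CPM of macrophages. Adipocytes had 8.27 to 61.0 CPM and T cells 8.98 to 50.1 CPM. The genes most alike in pattern were Tet1 (r = 0.79), Hs6st2 (r = 0.78) and Chl1 (r = 0.78).

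Areg (chr5:91287451-91296291, plus strand, GRCm39) was highest by far in the hormone-sensing luminal cells of the mammary epithelium. These nuclei had 2906 and 4680 CPM in SAT at 2 months, and 1578 and 3023 CPM in SAT at 24 months. Secretory luminal nuclei of the same libraries had 31.5 and 91.1 CPM, and 18.6 and 29.5 CPM. The ranges of these neighbouring cell types did not overlap. Epithelial nuclei were 5.38% to 14.1% of the SAT nuclei and held 91.2% to 95.9% of their Areg UMIs. In VAT, which had next to no such nuclei, Areg stood at 0.653 and 6.47 CPM over all nuclei, against 173 to 472 CPM in SAT.

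An Areg UMI was found after thinning in 78.0% and 88.6% of hormone-sensing nuclei at 2 months, and in 37.3% and 67.9% at 24 months. In secretory nuclei the share was 2.24% to 6.15%, and in T cells of SAT 1.10% to 3.77%. Median depths were 3719.5 to 4103 UMIs in hormone-sensing nuclei, 1576 to 2041 in secretory nuclei and 1245 to 1445 in T cells of SAT. Shares in the T cells and secretory nuclei were thus at a like low level in cells of unlike kind. Aqp5, a water channel of glands (r = 0.84), Prom2 (r = 0.84) and C130021I20Rik (r = 0.83) were most like Areg in pattern.

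The stretch before the start of Areg is shown because the gene had the sharpest boundary between neighbouring cell types. It is the 250 bases upstream of the start in the RefSeq table on GRCm38.p6 (chr5:91139349-91139598, plus strand). Matches to 3 motifs are in capitals. The cAMP response element was searched as TGACGTCA. The GC box was searched as GGGCGG and the TATA box, near which transcription often starts, as TATAAA.
Areg: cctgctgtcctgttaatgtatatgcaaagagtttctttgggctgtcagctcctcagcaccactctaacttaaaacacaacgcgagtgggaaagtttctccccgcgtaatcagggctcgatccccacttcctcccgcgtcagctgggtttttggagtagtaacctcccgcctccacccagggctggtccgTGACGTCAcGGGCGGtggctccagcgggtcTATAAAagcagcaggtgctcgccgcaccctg
The first base of these matches lay 61, 52 and 31 bases before the start. Searched on both strands in 32851 windows of the same length, the motifs were found in 1.55%, 32.7% and 12.4% of windows. The matches do not overlap each other, and they describe letters only.

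Egf (chr3:129470410-129549093, minus strand) was low everywhere. Adipocytes had 41.6 and 27.7 CPM in SAT at 2 months, 42.5 and 37.4 CPM in SAT at 24 months and 35.5 and 34.3 CPM in VAT. The groups overlapped. FAPs had 0 to 15.2 CPM and mature dendritic cells 0 to 10.2 CPM, both below every adipocyte library. B cells, at 0 to 39.9 CPM, overlapped with adipocytes. So did plasmacytoid dendritic cells (13.7 and 45.0 CPM) and ovarian steroidogenic nuclei (8.86 and 107 CPM), each measured in 2 libraries. Skeletal muscle nuclei reached 140 CPM, but in only 24 nuclei of 1 library with 6 UMIs. Hectd2os (r = 0.70) and Ipo13 (r = 0.69) were among the nearest in pattern.

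Hbegf, an EGF ligand that also serves as a receptor for diphtheria toxin in people, gave 173 UMIs in all kept nuclei. Oviduct secretory nuclei of VAT replicate 2 held 28 of them, at 22.6 CPM. Macrophages had 14.4 and 14.3 CPM in SAT at 2 months, 8.60 and 3.75 CPM in SAT at 24 months, and 2.12 and 0 CPM in VAT, from 0 to 6 UMIs per library. With so few UMIs, no difference between groups was read from these values. B9d2 (r = 0.63), Slc52a2 (r = 0.62) and Gsto1 (r = 0.62) were nearest in pattern.

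**Figure D1:**
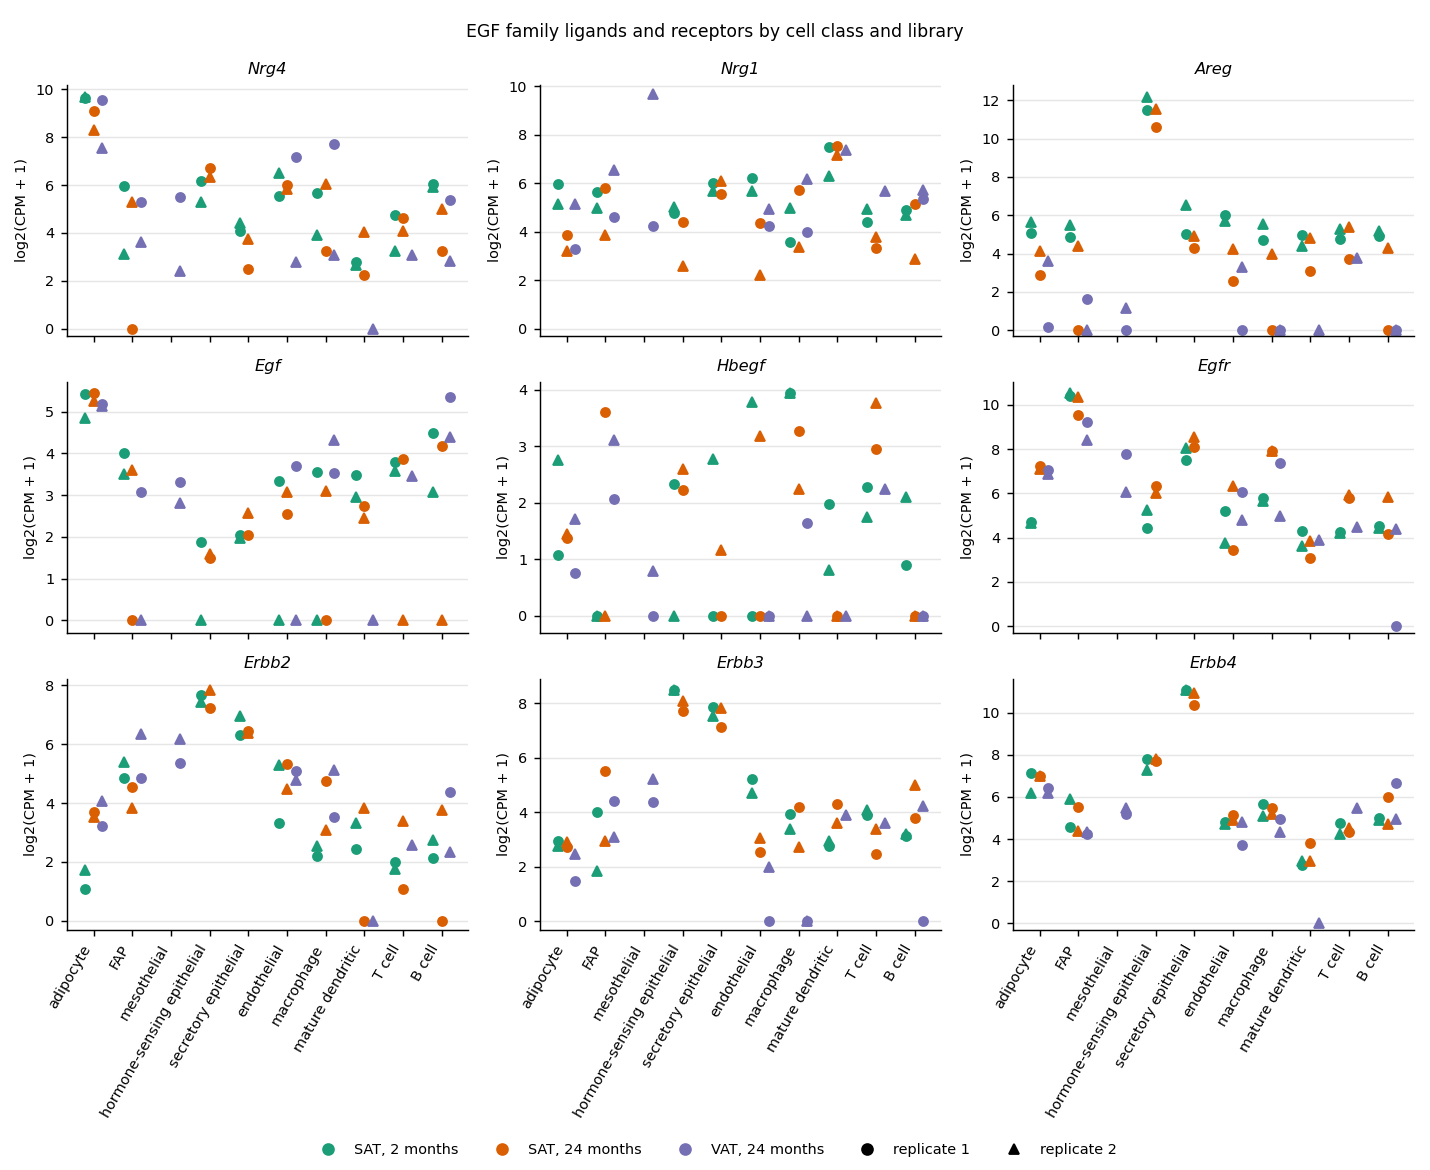
Level of each gene, as log2(CPM + 1) on the y axis, in 10 cell classes on the x axis, with 1 point per library that held at least 20 nuclei of the class. Colour gives the group and shape the replicate. Nrg4 was highest in adipocytes, Areg in hormone-sensing epithelial nuclei, Egfr in FAPs and Erbb4 in secretory epithelial nuclei, and the 2 VAT libraries differed in mesothelial Nrg1 (17.8 and 820 CPM).

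Egfr (chr11:16702198-16868158, plus strand), the receptor of Areg, Egf and Hbegf, was highest in the FAPs, the fibroblast-like cells that hold the precursors of adipocytes. FAPs had 1363 and 1471 CPM in SAT at 2 months, 745 and 1322 CPM in SAT at 24 months, and 599 and 336 CPM in VAT. In the same nuclei and order, the 8 FAP markers summed to 18493 and 19424 CPM, 10302 and 18303 CPM, and 14117 and 4974 CPM. How far the Egfr level goes with the make-up of the class was not tested. Every other class in which at least 4 libraries could be measured lay at or below 376 CPM. Col15a1-type FAPs had 1081 to 1678 CPM and Dpp4-type FAPs 345 to 1156 CPM, ranges that overlapped. Secretory epithelial nuclei, with 183 to 376 CPM, did not overlap with adipocytes, with 24.3 to 151 CPM. Macrophages, with 30.2 to 241 CPM, overlapped with both. Mature dendritic cells had 7.52 to 19.0 CPM and lay, with the conventional dendritic cells at 0 to 29.3 CPM, among the lowest.

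After thinning, 60.8%, 61.4%, 33.9% and 65.9% of SAT FAPs, and 36.3% and 20.7% of VAT FAPs, had an Egfr UMI. In mature dendritic cells the share was 0% to 1.99%. Median depth was 1293 to 1594.5 UMIs in FAPs, set beside the 1502.5 to 3046 UMIs of the dendritic cells. Genes most like Egfr were Col16a1 (r = 0.81), Scara5 (r = 0.81) and Plxdc2 (r = 0.80). Col16a1 is a collagen chain and Scara5 a ferritin receptor of fibroblasts.

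Erbb2 (chr11:98303203-98328542, plus strand), the receptor without a ligand, was highest in hormone-sensing nuclei, with 202 and 171 CPM in SAT at 2 months and 148 and 229 CPM at 24 months. Secretory nuclei had 78.7 to 123 CPM and did not overlap with them. Oviduct secretory nuclei reached 100 CPM, in 1 library, and mesothelial nuclei 40.1 and 72.2 CPM. Adipocytes had 1.11 to 16.0 CPM. After thinning, 11.8% to 19.6% of hormone-sensing nuclei and 6.16% to 8.38% of secretory nuclei had an Erbb2 UMI, against 0.141% to 0.535% of T cells. Mpzl1 (r = 0.82), Camsap3 (r = 0.78) and Ajuba (r = 0.77) were most alike.

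Erbb3 (chr10:128403392-128425811, minus strand) followed the same cells. Hormone-sensing nuclei had 356, 357, 211 and 271 CPM in the SAT libraries at 2 and then 24 months. Secretory nuclei had 230, 182, 138 and 226 CPM, a range that overlapped with that of the hormone-sensing nuclei. Adipocytes had at most 6.66 CPM. Vdr, the vitamin D receptor (r = 0.86), Esrp1, an epithelial splicing factor that was also on the epithelial marker list (r = 0.85), and Mboat1 (r = 0.79) were most alike.

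Erbb4 (chr1:68071345-69147619, minus strand), the receptor of Nrg4, was highest in the secretory luminal nuclei, with 2121 and 2141 CPM in SAT at 2 months and 1296 and 1981 CPM at 24 months. Hormone-sensing nuclei of the same libraries had 221, 153, 209 and 219 CPM. Areg and Erbb4 were highest in different luminal cell types. Adipocytes came next among the classes of 6 libraries, with 141 and 71.6 CPM in SAT at 2 months, 128 and 126 CPM in SAT at 24 months and 85.8 and 70.9 CPM in VAT, above the 18.0 to 59.2 CPM of FAPs. B cells, at 25.1 to 99.8 CPM, overlapped with them. After thinning, an Erbb4 UMI was found in 62.0% to 71.5% of secretory nuclei and in 6.22% to 10.7% of adipocytes, against 0% to 2.00% of mature dendritic cells. BC006965 (r = 0.78), Tfap2c (r = 0.76) and Prlr, the prolactin receptor (r = 0.76), were most alike.

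**Figure D2:**
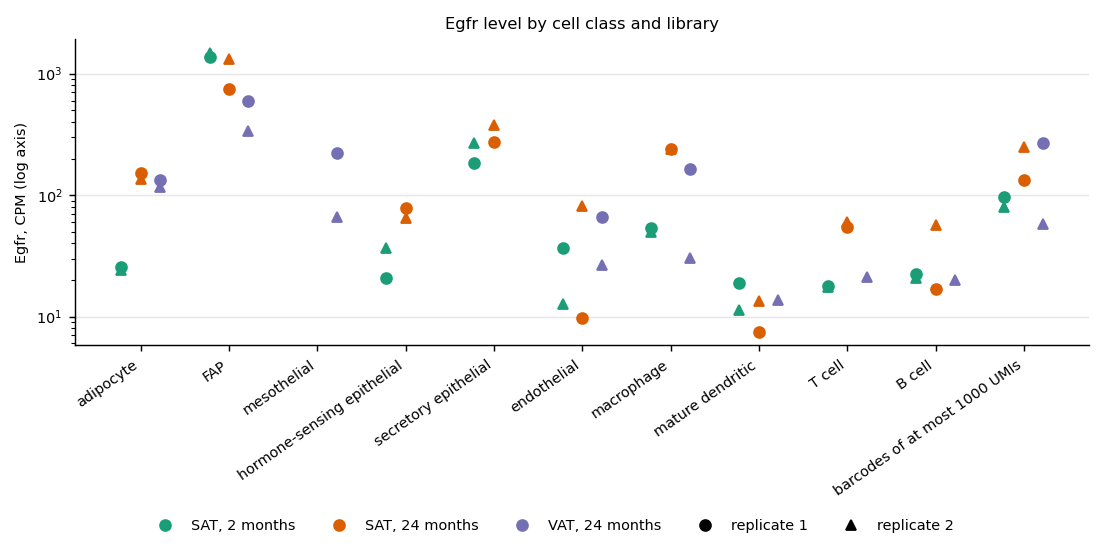
Egfr level in CPM (y axis, log scale) by cell class (x axis), with 1 point per library. The last column holds the barcodes of at most 1000 UMIs, which were not kept as nuclei, and the 24 B cell nuclei of VAT replicate 1, with 0 UMIs, are not drawn. FAPs lay highest in every group, and adipocytes of both 2-month libraries (25.5 and 24.3 CPM) lay below all 4 adipocyte values at 24 months.

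The first comparison asked how the genes differed in SAT adipocytes between 24 and 2 months. In adipocytes of old SAT, Egfr and Erbb2 rose and Nrg1 fell, whereas Nrg4 did not pass the test. Counts were summed per library and tested with edgeR's quasi-likelihood test over all genes, with Benjamini-Hochberg adjustment. That test gives no SE, so each SE beside an edgeR value is the absolute log2 fold change divided by the square root of its F statistic. Of the 9 genes, 7 passed the filter on low counts and 3 were called at an adjusted p under 0.05, 2 higher and 1 lower, beside 13% of all 12802 genes tested (6.66% higher and 6.37% lower). Hbegf and Erbb3 did not pass the filter.

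Egfr had 25.5 and 24.3 CPM in SAT adipocytes at 2 months and 151 and 135 CPM at 24 months. The groups did not overlap, and the VAT adipocytes of the same age, at 133 and 117 CPM, lay near the old SAT. The log2 fold change was 2.71 (SE 0.29, adjusted p = 0.00019, n = 2 libraries per group). It ranged from 2.51 to 2.89 over all alternatives and was called under each. After thinning, 2.18% and 2.01% of adipocyte nuclei at 2 months had an Egfr UMI, which is close to the 1.99% and 1.04% of mature dendritic cells of the same libraries. At 24 months the share was 11.8% and 10.7% in SAT, against 1.00% and 1.05% of mature dendritic cells. Without thinning, 35 of 871 and 15 of 498 adipocyte nuclei at 2 months, and 129 of 574 and 378 of 1672 at 24 months, had one.

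Of 19 adipocyte sub-clusters with at least 100 nuclei, 5 drew 63.9% to 98.7% of their nuclei from SAT at 2 months, and their Egfr level was 24.3 to 63.3 CPM. The other 14 drew at most 5.21% of their nuclei from there and had 59.0 to 190 CPM. Nrg4 ran from 380 to 943 CPM in the former and from 232 to 1119 CPM in the latter. These values are descriptions, since the sub-clusters were made from the same counts and without correction between libraries. In SAT at 2 months, an Egfr UMI was found in 4.58% and 2.67% of adipocyte nuclei with an Nrg4 UMI and in 3.08% and 3.54% of those without. In SAT at 24 months it was found in 26.0% and 26.6% of the former and 19.3% and 20.1% of the latter without thinning.

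**Figure D3:**
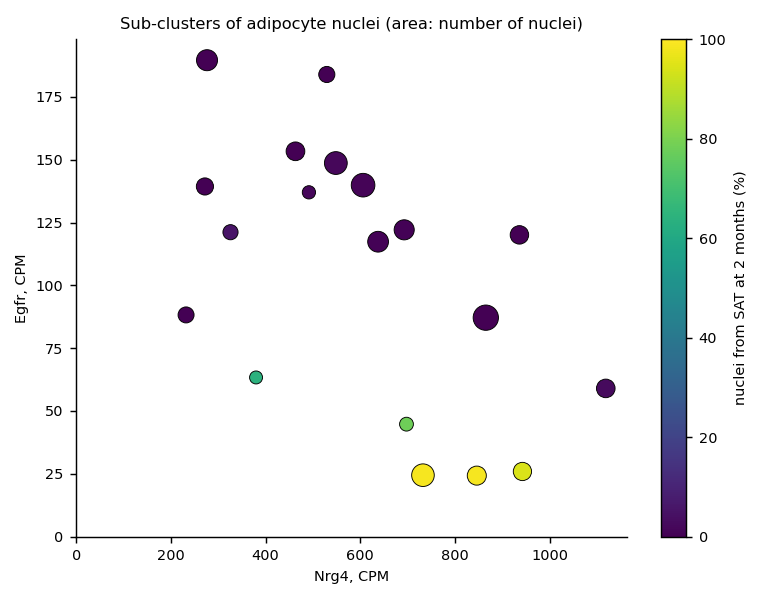
Egfr level (y axis, CPM) against Nrg4 level (x axis, CPM) in the 19 adipocyte sub-clusters of at least 100 nuclei. Area gives the number of nuclei and colour the share from SAT at 2 months. The 5 sub-clusters mostly from SAT at 2 months lie at 24.3 to 63.3 CPM of Egfr, and the other 14 at 59.0 to 190 CPM.

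Marker levels of FAPs, the class highest in Egfr, were measured beside it. The summed 8 FAP markers stood at 285 and 298 CPM in adipocytes at 2 months. Old SAT adipocytes had sums of 193 CPM (replicate 1) and 683 CPM (replicate 2), and VAT adipocytes had 488 and 613 CPM. SAT replicate 1 at 24 months thus had the highest Egfr and the lowest sum, whereas every other library of that age lay above the 2-month sums. In FAPs themselves the sum was 4974 to 19424 CPM. In barcodes of at most 1000 UMIs, Egfr stood at 96.0 and 79.5 CPM in young SAT and at 133 and 248 CPM at 24 months. The immediate-early genes, which mark stress during handling, summed to 374 and 559 CPM in adipocytes at 2 months and to 650 and 1243 CPM at 24 months. The part of free RNA and of handling in the Egfr difference was not tested.

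Erbb2 had 1.11 and 2.31 CPM in SAT adipocytes at 2 months, from 2 UMIs in each library, and 12 and 10.4 CPM at 24 months, from 15 and 48 UMIs. The groups did not overlap. The log2 fold change was 3.00 (SE 0.75, adjusted p = 0.0203, edgeR, n = 2). Over the summed counts, 63 UMIs against 4, the ratio was 7.20 with a 95% counting interval of 2.68 to 27.2. The call was lost without either 2-month library (adjusted p = 0.214 without replicate 1 and 0.0967 without replicate 2) and without SAT replicate 2 at 24 months (0.0644). Genes on the opposite strand overlap Erbb2 (Mien1, 920 UMIs in all kept nuclei), Egfr (Eldr, 430 UMIs) and Nrg4 (Fbxo22, 2047 UMIs). How strand was used in counting is not given in the sources used here, so the values of these 3 genes are uncertain to that extent.

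The stretches before the starts of Egfr and Erbb2 are shown because both receptors rose in old adipocytes. They are the 250 bases upstream in the RefSeq table on GRCm38.p6, for Egfr chr11:16751953-16752202 and for Erbb2 chr11:98412234-98412483, both on the plus strand, with matches to the 3 motifs searched for Areg in capitals.
Egfr: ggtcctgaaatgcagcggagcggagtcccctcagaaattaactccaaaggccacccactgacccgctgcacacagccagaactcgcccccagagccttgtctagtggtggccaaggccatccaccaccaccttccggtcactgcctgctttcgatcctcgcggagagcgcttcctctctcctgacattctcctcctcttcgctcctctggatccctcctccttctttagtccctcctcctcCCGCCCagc
Erbb2: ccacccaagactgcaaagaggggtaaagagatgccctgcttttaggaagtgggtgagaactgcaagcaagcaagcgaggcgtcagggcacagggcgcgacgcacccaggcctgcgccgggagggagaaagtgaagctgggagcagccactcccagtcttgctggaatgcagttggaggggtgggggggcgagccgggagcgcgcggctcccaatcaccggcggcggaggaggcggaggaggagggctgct
Egfr held 1 match, CCGCCC (a GC box on the minus strand), 9 bases before the start, and the Erbb2 window held none of the 3 motifs. G and C made up 57.2% of the Areg window, 60.8% of that of Egfr and 66.0% of that of Erbb2. Of the 9 genes, 6 were found in the table.

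Nrg1 had 61.0 and 34.7 CPM in SAT adipocytes at 2 months and 13.6 and 8.27 CPM at 24 months, with no overlap. The log2 fold change was -2.05 (SE 0.54, adjusted p = 0.0268, edgeR, n = 2). The call was lost without SAT replicate 1 at 2 months (adjusted p = 0.263) and without SAT replicate 2 at 24 months (0.152). The 8 immune markers summed to 701 and 1216 CPM in these adipocytes at 2 months and to 574 and 393 CPM at 24 months. Its part in the difference was not tested.

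The other 4 genes tested in SAT adipocytes were not called. Nrg4 had a log2 fold change of -0.69 (SE 0.52, adjusted p = 0.415, edgeR), although both 2-month libraries lay above both old ones. It moved to -0.34 without SAT replicate 2 at 24 months and to -1.16 without SAT replicate 1 at 24 months. Areg, at 32.2 and 48.5 CPM and then 6.42 and 16.5 CPM, had -1.49 (SE 0.73, adjusted p = 0.196), and it was called when either VAT library or both were left out of the fit. With 1 library left out, its log2 fold change ran from -2.40 to -1.05. The 12 epithelial markers summed to 127 and 164 CPM in adipocytes at 2 months and to 78.6 and 71.0 CPM at 24 months, and their part in the Areg values was not tested. Erbb4 had 0.42 (SE 0.32, adjusted p = 0.41) and Egf 0.36 (SE 0.32, adjusted p = 0.491). Without SAT replicate 1 at 2 months these were 1.02 and 0.71, and without SAT replicate 2 at 2 months 0.0063 and 0.092. On simulated counts of this design, 11% of genes changed 2-fold and 68% of genes changed 4-fold were recovered, so a change of the size of that of Nrg4 could be missed.

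With scaling by library size alone, the median log2 fold change of all genes in SAT adipocytes moved from 0.03 to -0.16, and 35.4% of the called genes were higher with age in place of 51.1%. The 3 genes called kept their directions, with log2 fold changes of 2.51 for Egfr, 2.81 for Erbb2 and -2.24 for Nrg1.

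**Figure D4:**
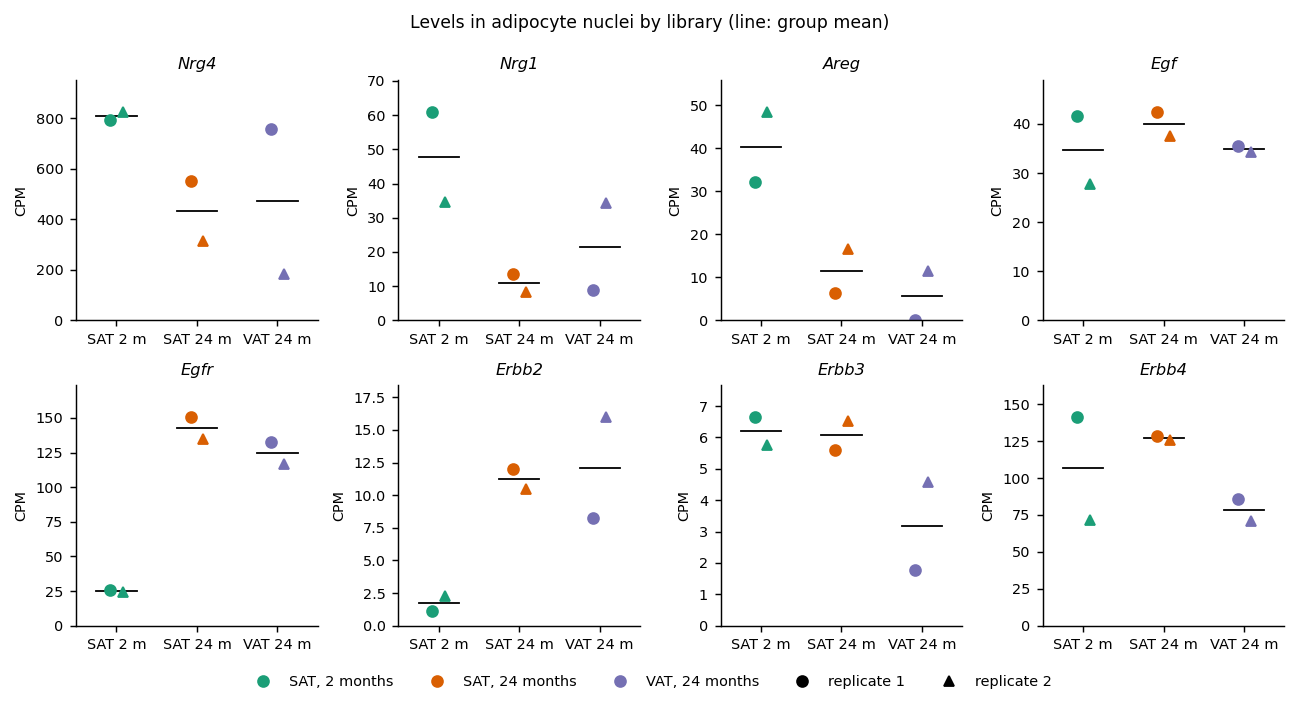
Level in adipocyte nuclei (y axis, CPM, linear from 0) of 8 genes in the 3 groups (x axis), with 1 point per library and a line at the group mean of 2 libraries. Egfr and Erbb2 were higher and Nrg1 lower in both old SAT libraries than in both young ones, and the VAT libraries lay apart in Nrg4 (759 and 185 CPM).

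In the other classes of SAT, Egfr was the only gene of the family called with age by edgeR. Over 7 classes (the immune class holds the T cells, B cells and macrophages that were also tested apart) and 42 tests, 2 results were called, both Egfr and both higher at 24 months, in T cells and in epithelial nuclei, and 9 had an unadjusted p under 0.05. T cells had 18.0 and 17.5 CPM at 2 months and 55.0 and 60.1 CPM at 24 months, without overlap (log2 fold change 1.71, SE 0.32, adjusted p = 0.00024, edgeR, n = 2), beside 13.6% of all genes called (7.82% higher and 5.81% lower). These values rest on 42, 59, 49 and 19 UMIs, and 1.41% and 1.33%, and then 5.16% and 6.13%, of the thinned T cell nuclei had one. T cell nuclei of VAT replicate 2 had 21.3 CPM. The ages lay in different T cell sub-clusters. Beside the regulatory T cells, 8 of 18 sub-clusters had Lef1, a factor of naive T cells, among their leading genes. They held 2458 of 3162 nuclei at 2 months but 34 of 596 at 24 months, with 2.45 to 26.7 CPM of Egfr. Another 5 had the interleukin receptor gene Il23r among their leading genes and held 358 of these nuclei at 2 months and 428 at 24 months, with 25.5 to 104 CPM. The split by these genes was made after the values were seen, and unlike T cell types and a change within a type cannot be told apart in the class value. The 9 adipocyte markers summed to 569, 434, 410 and 1222 CPM and the 8 FAP markers to 192, 186, 66.2 and 142 CPM in the T cells of these 4 SAT libraries, and their part in the difference was not tested.

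Epithelial nuclei of SAT had 49.0 and 106 CPM of Egfr at 2 months and 186 and 205 CPM at 24 months, with no overlap. The log2 fold change was 1.36 (SE 0.30, adjusted p = 0.0242, edgeR, n = 2), beside 6.69% of all genes called (3.23% higher and 3.46% lower). It fell to 0.87 and was not called without SAT replicate 1 at 2 months (adjusted p = 0.0564). Secretory nuclei, the epithelial type with more Egfr, were 150 and 179 at 2 months against 255 and 132 hormone-sensing nuclei, and 250 and 357 at 24 months against 102 and 193.

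The types were therefore also fitted apart, a choice made after these values were seen. Hormone-sensing nuclei had 20.7 and 36.7 CPM of Egfr at 2 months and 78.8 and 64.5 CPM at 24 months (log2 fold change 1.33, SE 0.34, adjusted p = 0.0309, edgeR), beside 5.23% of all genes called. The call was lost without SAT replicate 1 at 2 months (adjusted p = 0.309) and without either library at 24 months (0.0987 and 0.0646), and DESeq2 gave 0.157. The higher level at 24 months lay in 1 of the 5 hormone-sensing sub-clusters. That sub-cluster of 106 nuclei, all but 3 from 24 months and led by Fcgbp, Wfdc18 and other genes that include Ltf (the milk protein lactoferrin), had 125 CPM of Egfr from 102 UMIs. Wfdc18 was on the marker list of secretory nuclei, and Fcgbp, Wfdc18 and Ltf were also leading genes of secretory sub-clusters. Erbb4, highest in secretory nuclei, stood at 444 CPM in this sub-cluster of 106 nuclei against 4.04 to 323 CPM in the other 4. The part of secretory RNA in this value was not tested. Of the other sub-clusters mostly from 24 months, one of 126 nuclei had 14.5 CPM from 7 UMIs and one of 64 nuclei had 0 UMIs. Those mostly from 2 months, of 269 and 117 nuclei, had 12.1 and 39.3 CPM. These sub-cluster values describe pooled counts and were not tested. Secretory nuclei had 183 and 267 CPM at 2 months and 276 and 376 CPM at 24 months, which did not pass the test (log2 fold change 0.57, SE 0.25, adjusted p = 0.307, beside 3.27% of all genes called).

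Areg came close to the threshold in epithelial nuclei. It stood at 2403 and 3298 CPM at 2 months and at 733 and 1674 CPM at 24 months, with a log2 fold change of -1.25 (SE 0.34, adjusted p = 0.0533, edgeR, n = 2). It was called in each fit that left out 1 SAT library, and with the replicate number as a block (adjusted p = 0.0172), whereas DESeq2 gave 0.323. In hormone-sensing nuclei alone the groups overlapped, and the log2 fold change was -0.77 (SE 0.30, adjusted p = 0.178), or -0.80 with the block (adjusted p = 0.0248). It was called without SAT replicate 1 at 2 months (-1.09, adjusted p = 0.0202) and without SAT replicate 2 at 24 months (-1.30, adjusted p = 0.00793), and was -0.37 and -0.38 without the other 2 SAT libraries, uncalled. Here too the ages lay in different sub-clusters. Of those mostly from 24 months, the one of 126 nuclei had 4116 CPM of Areg, above the 3501 and 3592 CPM of those mostly from 2 months, and those of 106 and 64 nuclei had 2089 and 557 CPM. Secretory nuclei, with far less Areg, had -1.30 (SE 0.51, adjusted p = 0.215), with -1.83 and a call without SAT replicate 1 at 2 months (0.00555) and -0.35 without SAT replicate 2 at 2 months. Erbb3 in epithelial nuclei had -0.60 (SE 0.21, adjusted p = 0.131, edgeR), with -0.90 without SAT replicate 2 and -0.37 without SAT replicate 1 at 24 months. Erbb4 there had 0.46 (SE 0.22, adjusted p = 0.265), and 0.26 to 0.70 with 1 library left out. Erbb2 had -0.29 (SE 0.21, adjusted p = 0.509), and -0.55 to -0.079 with 1 library left out.

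In macrophages Egfr stood at 53.9 and 50 CPM at 2 months and at 241 and 238 CPM at 24 months (log2 fold change 2.27, SE 0.65, adjusted p = 0.269, edgeR), which did not pass the test. It was called with the 4 SAT libraries alone (adjusted p = 0.0103) and without either VAT library (0.00151 and 0.00135), fits in which 3.13%, 5.03% and 4.31% of all genes were called. The 9 adipocyte markers summed to 769, 716, 1161 and 4826 CPM in these nuclei, and their part was not tested. In the macrophages 0 of 8103 genes were called with age by edgeR, or 0%. FAPs, with the highest level, had a log2 fold change of -0.40 (SE 0.52, adjusted p = 0.835; -0.94 without SAT replicate 2 and -0.048 without SAT replicate 1 at 24 months), and there too 0% of genes were called. In endothelial nuclei Nrg1 had -2.66 (SE 1.03, adjusted p = 0.371, edgeR, beside 0.0265% of genes called), and -3.66 to -1.52 with 1 library left out. In T cells Nrg1 had -1.28 (SE 0.47, adjusted p = 0.0679, edgeR), and -1.50 to -0.90 with 1 library left out. In the immune class as a whole, with 0% of genes called, Egfr had 2.04 (SE 0.88, adjusted p = 0.58), and in B cells, with 1.1% called, Nrg4 had -1.64 (SE 0.67, adjusted p = 0.316). No mesothelial contrast could be made, since SAT held 0 to 4 mesothelial nuclei per library. On simulated counts, 22% of genes changed 4-fold with age were recovered in macrophages, 11% in FAPs and 0% in endothelial nuclei. Changes of that size could thus be missed in these classes.

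The next comparison asked how VAT differed from SAT at 24 months. In adipocytes 0 of the 7 genes tested were called by edgeR, beside 0.141% of 12802 genes (0.0625% higher and 0.0781% lower in VAT), and 1 had an unadjusted p under 0.05. DESeq2 called 0. That gene was Areg, at 6.42 and 16.5 CPM in SAT and 0.137 and 11.4 CPM in VAT (log2 fold change -3.35, SE 1.14, adjusted p = 0.562), from 84 UMIs against 6. It was called without VAT replicate 2 (-6.11, adjusted p = 0.0148), where a single UMI was left, and fell to -0.17 (adjusted p = 0.954) without VAT replicate 1. Epithelial markers summed to 78.6 and 71.0 CPM in SAT adipocytes and to 19.2 and 59.4 CPM in VAT adipocytes, and their part was not tested.

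The other 6 genes tested in adipocytes did not pass the test between depots. Egfr, at 151 and 135 CPM in SAT and 133 and 117 CPM in VAT, had a log2 fold change of -0.17 (SE 0.26, adjusted p = 0.952, edgeR). Erbb4 had -0.65 (SE 0.33, adjusted p = 0.763), with both VAT libraries below both SAT ones. Nrg4 had 0.19 (SE 0.52, adjusted p = 0.979), a value that turned to -1.26 (adjusted p = 0.352) without VAT replicate 1. Egf had -0.15 (SE 0.32), Erbb2 -0.06 (SE 0.57) and Nrg1 0.58 (SE 0.60), and none of these 3 passed the test.

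In the other classes, 0 of 27 tests in 5 classes were called between depots by edgeR and 0 by DESeq2, and 2 had an unadjusted p under 0.05, Erbb2 in FAPs and Areg in the immune class. In these classes 0% of FAP, endothelial, immune and B cell genes and 0.0247% of macrophage genes were called. On simulated counts of this contrast, 24% of genes changed 4-fold were recovered in macrophages, 17% in FAPs and 5% in endothelial nuclei. Changes of that size could thus be missed. FAPs had 745 and 1322 CPM of Egfr in SAT and 599 and 336 CPM in VAT (log2 fold change -1.11, SE 0.53, adjusted p = 0.942). With 1 library left out the log2 fold change ran from -1.68 to -0.57. The 8 FAP markers summed to 10302 and 18303 CPM in these SAT nuclei and to 14117 and 4974 CPM in VAT, and their part was not tested. Erbb2 in FAPs had 22.3 and 13.4 CPM in SAT and 27.6 and 80.2 CPM in VAT (1.67, SE 0.75, adjusted p = 0.942). The depots drew on different FAP sub-clusters: one of 119 nuclei, 118 of them from VAT replicate 2, had 70.3 CPM of Erbb2 from 13 UMIs, and VAT replicate 1 lay mostly in others. T cell and epithelial nuclei of VAT were too few in at least 1 library for a test.

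Over all nuclei, where fewer cells of a type and less RNA per cell cannot be told apart, no gene of the family passed the test with edgeR. On simulated counts, 2% of genes changed 4-fold with age and 4% of those changed 4-fold between depots were recovered. Changes of that size could thus be missed here. With age in SAT, 0 of 9 were called by edgeR and by DESeq2, 0 had an unadjusted p under 0.05, and 0% of 21729 genes were called. Egfr stood at 89.2 and 100 CPM at 2 months and 131 and 190 CPM at 24 months, and Erbb4 at 148 and 111 CPM and then 239 and 234 CPM. Between depots 0 of 9 were called by edgeR, 2 had an unadjusted p under 0.05, and 0.0138% of genes were called.

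Those 2 were Areg (log2 fold change -6.13, SE 0.99, adjusted p = 0.193) and Erbb4 (-1.82, SE 0.48, adjusted p = 0.451). Areg stood at 173 and 282 CPM in SAT against 0.653 and 6.47 CPM in VAT, and DESeq2 called it. Erbb4 stood at 239 and 234 CPM against 79.7 and 43.9 CPM. Epithelial nuclei, which held most UMIs of both genes in SAT, were 14.1% and 11.7% of nuclei in SAT at 24 months and 0.316% and 0.0986% in VAT. Nrg1 stood at 53.6 and 22.6 CPM in SAT, against 12.4 and 382 CPM in VAT (2.27, SE 1.24, adjusted p = 0.762), and 87.1% of its UMIs in VAT replicate 2 came from mesothelial nuclei.

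Genes around the receptors were read from 5 lists of 63 genes in all: other ligands of the family, proteins of shedding, regulators of the receptors, adaptors and kinases, and feedback inhibitors and targets. In SAT adipocytes 53 passed the filter and 11 were called with age, 8 higher and 3 lower, a share to be read beside the 13% of all genes. Their median log2 fold change was 0.19 against 0.03 for all genes. By list, 1 ligand rose and 1 fell of 3 tested, 1 of 5 shedding genes rose, 1 of 12 regulators rose and 1 fell, 2 of 24 adaptors and kinases rose and 1 fell, and 3 of 9 feedback genes and targets rose and 0 fell.

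The feedback genes that rose were Spry4, Phlda1 and Spry2. Sprouty proteins such as Spry4 and Spry2 restrain signalling from receptor kinases, and Phlda1 is induced by growth factors. Spry4 had 1.66 and 0 CPM at 2 months and 9.62 and 31.3 CPM at 24 months, with a fitted log2 fold change of 4.42 (SE 0.81, adjusted p = 0.00421, edgeR). It was called with each library left out, at 8.95 without SAT replicate 1 at 2 months, which leaves 0 UMIs at 2 months, and at 3.29 without SAT replicate 2 at 24 months. From 156 UMIs against 3, the ratio was 23.8 with a 95% counting interval of 7.98 to 116. Phlda1 had 6.10 and 16.2 CPM and then 34.5 and 58.8 CPM (log2 fold change 2.43, SE 0.45, adjusted p = 0.00446). Spry2 had 13.3 and 10.4 CPM and then 24.1 and 33.1 CPM (1.45, SE 0.42, adjusted p = 0.0394), a call that was lost with DESeq2 (0.106) and with scaling by library size (0.0796). The groups did not overlap for any of the 3. The 20 immediate-early genes, which growth factors and handling both induce, summed to 374 and 559 CPM in the same adipocytes at 2 months and to 650 and 1243 CPM at 24 months, and their part in these differences was not tested.

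Of the ligands, Btc (betacellulin), which binds Egfr and Erbb4, rose and Nrg3, which binds Erbb4, fell. Btc had 14.4 and 16.2 CPM at 2 months and 66.6 and 48.1 CPM at 24 months (log2 fold change 2.10, SE 0.37, adjusted p = 0.00325, edgeR). Nrg3 had 40.5 and 30 CPM and then 10.4 and 9.14 CPM (-1.70, SE 0.43, adjusted p = 0.0232), and DESeq2 gave 0.0518. Timp3, an inhibitor of the shedding protease Adam17, rose from 9.43 and 18.5 CPM to 93.0 and 105 CPM (3.13, SE 0.43, adjusted p = 0.000716). Lrig1, which promotes the breakdown of the receptors, fell from 152 and 144 CPM to 18.4 and 53.6 CPM (-1.77, SE 0.36, adjusted p = 0.0068). Its log2 fold change ran from -2.79 to -1.26 with 1 library left out.

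Gab2, an adaptor of the receptors, rose from 96.5 and 82.0 CPM to 278 and 273 CPM (log2 fold change 1.82, SE 0.28, adjusted p = 0.00153, edgeR). Ptpn12, a tyrosine phosphatase, rose from 53.3 and 53.1 CPM to 132 and 110 CPM (1.39, SE 0.28, adjusted p = 0.0074). Stat5a, a transcription factor downstream of several receptors including that of growth hormone, fell from 279 and 254 CPM to 86.6 and 123 CPM (-1.14, SE 0.26, adjusted p = 0.0142). Braf, a kinase of the MAPK cascade, rose from 92.1 and 117 CPM to 184 and 161 CPM (0.94, SE 0.29, adjusted p = 0.0492), a call that was lost with DESeq2 (0.0575) and with scaling by library size (0.0756). Without SAT replicate 1 at 2 months 3 of the 63 genes were called, beside 4.33% of all genes, and without replicate 2 at 2 months 6 were, beside 2.96%. Gab2, Timp3 and Spry4 were called with each of the 6 libraries left out in turn. Btc, Lrig1 and Phlda1 lost the call without SAT replicate 1 at 2 months (adjusted p = 0.0542, 0.0584 and 0.0956). Ptpn12 lost it without either 2-month library, with an adjusted p of up to 0.0944. Stat5a lost it without either 2-month library and without SAT replicate 1 at 24 months, with up to 0.109. Nrg3 and Spry2 lost it without either 2-month library and without SAT replicate 2 at 24 months, with up to 0.226 and 0.257. Braf lost it without any 1 of the 4 SAT libraries, with up to 0.306. Between depots 0 of the 53 tested were called in adipocytes by edgeR, beside 0.141% of all genes.

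**Figure D5:**
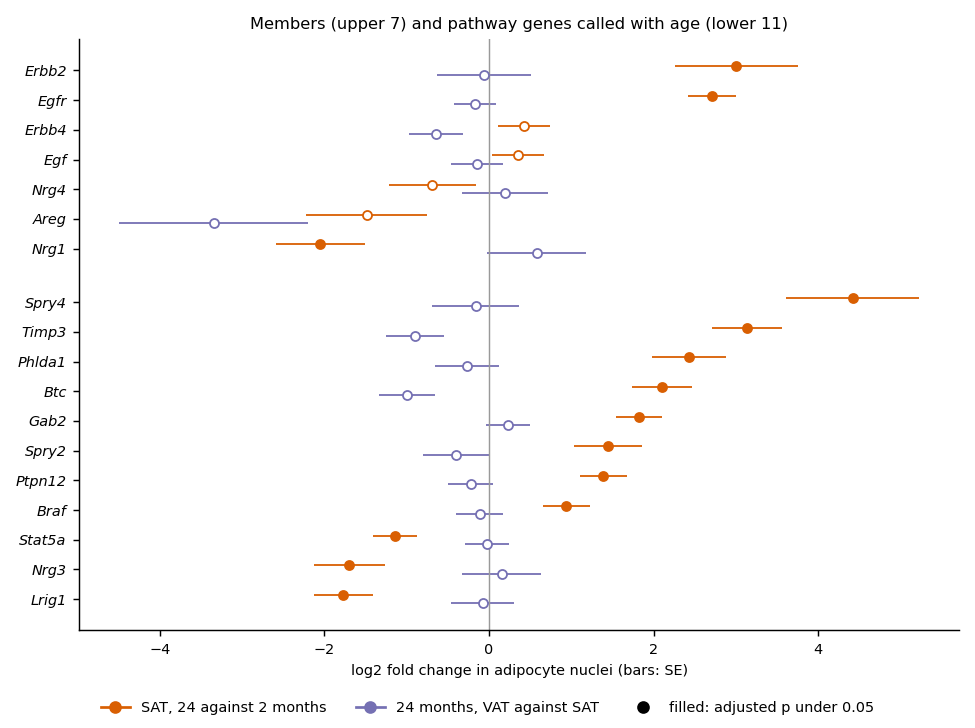
Log2 fold change in adipocyte nuclei (x axis, bars are 1 SE, 2 libraries per group) for the 7 tested genes of the family and the 11 pathway genes called with age, for SAT at 24 against 2 months and for VAT against SAT at 24 months. Filled points had an adjusted p under 0.05, which held for Egfr, Erbb2, Nrg1 and the 11 pathway genes with age and for no gene between depots.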

How the data were processed

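Nuclei were sorted and sequenced with a Singleron GEXSCOPE kit, and the authors aligned reads to GRCm39 with Celescope, whose version and annotation are not given in the sources used here. The deposited values were raw counts of UMIs per gene and barcode, with at least 500 UMIs per barcode. The filter stated in the methods was applied, and the nuclei it left differ in number from those the study states. Nuclei were clustered with functions written in Python 3.11.15 and with leidenalg 0.10.2 (1000 variable genes, 30 principal components, Harmony, 20 neighbours, Leiden resolution 2). Larger clusters were clustered again at resolution 1 without Harmony, giving 177 sub-clusters that can split by library. A class needed 3 markers over 2-fold, a mean log2 fold of 0.5, a lead of 0.3 over the next class, and no contrary markers among the 10 leading genes. Naming rules were changed after clusters had been looked at, and members and gene lists were chosen with earlier results of these data known, so names may differ from those of the study. Scrublet in scanpy 1.11.5 marked 0.0519% to 0.562% of nuclei, and whether it missed doublets was not tested. Marked nuclei were kept, with alternatives without them and without the highest 5% of doublet scores.

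Counts were summed per class and library and tested in edgeR 4.0.16 (R 4.3.3; quasi-likelihood test, all groups in one fit, Benjamini-Hochberg adjusted p under 0.05), with DESeq2 1.42.0 as an alternative. The scripts were tested on simulated data. Other alternatives were the scaling, the low count filter, the samples in the fit, a replicate block, each library left out, the nucleus filter and the clustering. The genes named were all members, the pathway genes called with age in adipocytes, and the 3 genes nearest to each member in pattern, of which 1 is not reported here. Gene positions are those of GRCm39, and the windows upstream of gene starts those of the RefSeq table. Sub-clusters without a name were left out of the classes.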

Additional observations from a re-analysis of the deposited data

How the results depend on the processing

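In SAT adipocytes 3 members were called with age, and 1 to 4 when 1 library was left out, fits in which 2.96% to 16% of all genes were called. Between depots in adipocytes the count was 0, or 1 with no low count filter, and 0 to 1 with 1 library left out. With age in the other classes it was 2, or 5 with no low count filter, and 2 to 6 with 1 library left out. There the share of all genes called moved too, in macrophages from 0% to 5.03% and 4.31% without VAT replicate 1 and 2, and in B cells from 1.1% to 3.84% without SAT replicate 1 at 24 months. Between depots in the other classes it was 0, or 2 with no low count filter, and 0 to 1 with 1 library left out. Over all nuclei it was 0 with age and 0 to 0 with 1 library left out. Between depots over all nuclei it was 0, or 1 with DESeq2 and 3 with no low count filter, and 0 to 4 with 1 library left out (4 without VAT replicate 1 and 2 without VAT replicate 2). Of all genes, 0.0138% were called there, but 2.4% with DESeq2, 2.49% with no low count filter, 4.02% without VAT replicate 1 and 1.63% without VAT replicate 2. Pathway genes called with age in adipocytes numbered 11, and 3 to 12 with 1 library left out. Between depots they numbered 0, and 0 to 0.

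Some depot values in adipocytes turned sign, none of them called: Nrg4 from 0.19 to -0.19 without SAT replicate 2 at 24 months and to -1.26 without VAT replicate 1 (range -1.26 to 0.87 over the libraries left out), Nrg1 from 0.58 to -0.16 without VAT replicate 2 (range -0.16 to 1.70), and Erbb2 from -0.06 to 0.04 without SAT replicate 1 at 24 months and to 0.49 without VAT replicate 1 (range -0.37 to 0.49). Nrg1 over all nuclei turned from 2.27 to -1.30 without VAT replicate 2 (range -1.30 to 3.22, called at an adjusted p of 0.00821 without VAT replicate 1). The cause was not tested. Among single values under the alternatives, 713 kept direction and side of the threshold, 35 became called and 36 lost the call.

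Replicate numbers are not tied to animals in the labels, and deviations of equal numbers correlated at -0.27 (SAT at 2 and 24 months), 0.18 (SAT at 2 months and VAT) and -0.47 (SAT and VAT at 24 months) over all nuclei, so the numbers were not taken as pairs. With the replicate number as a block, 3 members were called with age in adipocytes, 0 between depots there, 3 with age in the other classes (Areg in epithelial nuclei joined), 0 between depots in the other classes, and 12 pathway genes with age. Of all genes, 15.2% were then called with age in adipocytes, 6.71% in epithelial nuclei and 12.2% in T cells. Low counts limit Hbegf in every class and Erbb3 in adipocytes.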

Other observations

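Some sub-clusters that carried basal epithelial markers were left without a name because contractile and other genes led them. In 2 of them, of 224 and 162 nuclei, Nrg1 stood at 309 and 549 CPM and Egfr at 547 and 286 CPM. A further unnamed sub-cluster of 621 nuclei with adipocyte markers had 141 CPM of Egfr and 301 CPM of Nrg4.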
